A study of Homo sapiens with 18 samples.

Results

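Autophagy and lysosome genes were followed in C4-2B cells, a castration-resistant prostate cancer cell line, under an Aurora kinase A (AURKA) inhibitor, a PARP inhibitor or both. The set held 42 genes named by symbol, from the kinases that start autophagy to the enzymes inside the lysosome, out of 22136 genes with counts at 2 days and 21276 at 7 days. All 42 were found in both tables. The rule for membership uses the gene symbol and no measured value. The members and the lists of other pathway genes were, however, chosen with earlier results of these data known.

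C4-2B cells were treated with DMSO vehicle (VEH), VIC-1911 at 0.1 µM (VIC, the AURKA inhibitor), olaparib at 1 µM (OLA, the PARP inhibitor) or both drugs at those doses (COMBO). RNA was sequenced after 2 days (VEH and VIC) and after 7 days (VEH, VIC, OLA and COMBO), with 3 libraries in each of the 6 groups and 18 in all. The labels name no gene change, and all groups came from 1 cell line. The labels do not say whether the 3 libraries of a group came from separate cultures, so the p values measure the spread between these libraries, which may be technical. The comparisons addressed which genes each inhibitor and their combination changed.

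Autophagy encloses cytoplasm in a double membrane and delivers it to the lysosome. The ULK kinase complex starts the process, a class III phosphatidylinositol 3-kinase complex marks the membrane with lipid, and 2 ubiquitin-like conjugation systems attach ATG8 proteins (LC3 and GABARAP) to the growing membrane, where they bind cargo receptors. The lysosome then degrades the content with acid hydrolases, under a pH set by the vacuolar proton pump (V-ATPase). The transcription factors TFEB, TFE3 and MITF bind a motif with the core CACGTG in the promoters of many of these genes and are held in check by mTORC1 at the lysosomal surface.

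Total counts ran from 3245273 to 7184420 per library at 2 days and from 4967931 to 19684208 at 7 days. At 2 days, low members therefore rested on few reads, and MAP1LC3A (1 to 4 counts per library) could not be tested. All 9 prostate luminal markers were above 1 FPKM (a read count scaled to transcript length and to the depth of the library) in all 18 libraries. Their summed level was 4388 to 4425 FPKM in VEH_7d and 2899 to 3306 FPKM in the treated 7-day libraries. KLK3 alone reached 2697 FPKM, so the sum follows it closely. Of the 9, 5, 6 and 6 were called lower and 1, 2 and 2 higher under VIC-1911, olaparib and the combination. Over all tested genes 25.7%, 25.9% and 28.0% were lower and 26.7%, 28.1% and 28.6% higher. Markers of fibroblasts summed to 1.39 to 2.63 FPKM (COL1A1 the highest) and those of endothelial cells to 0.754 FPKM or less. Leukocyte markers summed to 5.95 to 10.4 FPKM, nearly all from CD68, a lysosomal membrane glycoprotein that other cells also express, and in each of these 3 lists 1 marker was at 0 in all libraries. CD68 rose under olaparib (log2 fold change 0.42) and the combination (0.59). Of the 3 fibroblast markers tested at 7 days, 1 was called higher under VIC-1911 and 2 each under olaparib and the combination. The largest values among the 3, called or not, were 0.88, 1.01 and 1.28. The value of 1.01 under olaparib was not called. The 1 endothelial marker tested was called lower under olaparib (-1.19) and the combination (-1.22). The part of cell composition in the values below was not tested, and in bulk RNA a change in the share of cells cannot be told apart from a change in RNA per cell. AURKA RNA rose 1.86 ± 0.10 (log2, SE) under VIC-1911 at 7 days and PARP1 RNA rose 0.55 ± 0.04. The 3 drug targets (AURKA, PARP1 and PARP2) spanned only -0.16 to 0.29 under the combination, which holds the same VIC-1911 dose. Under olaparib they spanned 0.04 to 0.48. Both drugs act on the proteins, so these levels do not check the labels.

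The library names of VEH_7d and VIC_7d form one run of numbers and those of OLA_7d and COMBO_7d another. Any difference between these runs cannot be told apart from the olaparib effect. It enters OLA against VEH, COMBO against VEH and COMBO against VIC alike. VIC against VEH and COMBO against OLA lie within a run, and the interaction of the drugs is the difference of these 2 contrasts.

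Promoter sequences were searched for the motif with the core CACGTG. RefSeq promoters (250 bases before to 50 after a transcription start, assembly GRCh38.p14) were matched for 34 of the 42 genes, with 45 promoters in all. CACGTG, which reads the same on both strands, was found in 7 of the 45 promoters (15.6%), 1 in each of 7 genes (ATG14, ATG3, ATP6V0D1, CTSA, CTSD, LAMP1 and MCOLN1), and in 7.26% of all 35116 promoters. The full CLEAR element, a palindrome of 10 bases around that core, was found in 1 member promoter (MCOLN1) and in 0.353% of all promoters. A match is a stretch of letters and not a measured binding site. The 4 promoters below belong to a gene that rose under each 7-day treatment (ATP6V0D1), genes that fell (CTSD and LAMP1) and the gene with the full element (MCOLN1); CACGTG is in capitals and each sequence reads 5′ to 3′ on the strand of the gene.
ATP6V0D1 promoter: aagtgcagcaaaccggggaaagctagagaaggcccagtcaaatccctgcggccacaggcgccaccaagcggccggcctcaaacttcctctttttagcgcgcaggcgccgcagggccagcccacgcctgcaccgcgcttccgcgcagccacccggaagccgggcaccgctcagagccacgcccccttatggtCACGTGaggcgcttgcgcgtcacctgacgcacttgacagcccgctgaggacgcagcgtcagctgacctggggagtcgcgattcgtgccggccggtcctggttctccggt
CTSD promoter: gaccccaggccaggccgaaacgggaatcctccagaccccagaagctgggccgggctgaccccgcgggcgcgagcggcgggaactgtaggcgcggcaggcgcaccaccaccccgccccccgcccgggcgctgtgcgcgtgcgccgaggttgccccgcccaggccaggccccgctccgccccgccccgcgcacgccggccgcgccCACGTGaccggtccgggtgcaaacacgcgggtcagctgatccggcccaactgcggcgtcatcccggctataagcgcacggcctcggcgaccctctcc
LAMP1 promoter: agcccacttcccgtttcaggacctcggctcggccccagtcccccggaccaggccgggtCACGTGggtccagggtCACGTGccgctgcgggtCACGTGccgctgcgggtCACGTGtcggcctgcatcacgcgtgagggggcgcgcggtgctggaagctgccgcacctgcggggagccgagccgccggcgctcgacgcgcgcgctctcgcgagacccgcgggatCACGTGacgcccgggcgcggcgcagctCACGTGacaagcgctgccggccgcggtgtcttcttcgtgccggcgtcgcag
MCOLN1 promoter: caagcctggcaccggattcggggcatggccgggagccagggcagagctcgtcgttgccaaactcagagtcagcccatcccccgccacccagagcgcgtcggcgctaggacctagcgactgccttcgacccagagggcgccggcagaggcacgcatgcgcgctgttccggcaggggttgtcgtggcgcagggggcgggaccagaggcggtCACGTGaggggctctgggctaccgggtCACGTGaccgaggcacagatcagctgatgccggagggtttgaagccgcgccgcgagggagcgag
The ATP6V0D1 window lies at chr16:67481108-67481407 (minus strand), CTSD at chr11:1763878-1764177 (minus strand), LAMP1 at chr13:113296989-113297288 (plus strand) and MCOLN1 at chr19:7522374-7522673 (plus strand). LAMP1 held 6 copies and MCOLN1 2. The copy of ATP6V0D1 starts 59 bases before the transcription start and that of CTSD 47 bases before it.

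In vehicle-treated cells, the members covered a wide range of levels. PSAP, the precursor of the saposins that help degrade sphingolipids, was highest at both times (303 FPKM at 2 days and 451 at 7 days), followed by CTSD, GABARAP and SQSTM1. MITF (0.95 and 1.09 FPKM), OPTN (0.729 and 0.706) and MAP1LC3A (0.281 and 0.269) were the 3 lowest. The 2 times were processed in separate tables, so no test was made between their vehicle levels.

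Differences against vehicle were modest in size. In 2-day cells 8 of the 41 tested members rose and 1 fell under VIC-1911, when 7.5% of all tested genes rose and 7.19% fell. The 8 became 5 with DESeq2 or without VIC_2d library 2, 2 with limma on log2(FPKM + 1) and 0 with limma on log2(FPKM + 0.1), where 9 had an unadjusted p under 0.05, and each of the 9 calls at 2 days was lost in the last of these. DESeq2 lost the 2-day calls of GABARAP, NPC1 and WIPI1. At 7 days VIC-1911 raised 10 and lowered 14 of 42, against 26.7% and 25.7% of all genes. Olaparib raised 6 and lowered 13, against 28.1% and 25.9%. The combination raised 15 and lowered 10, against 28.6% and 28.0%. As shares of the 42 members these were 23.8%, 14.3% and 35.7% higher and 33.3%, 31.0% and 23.8% lower, and shares near the background are no result about the members. A call means an adjusted p under 0.05 in edgeR's quasi-likelihood test with Benjamini-Hochberg adjustment over all tested genes, with no limit on the fold. No member passed a limit of 1.5-fold at 2 days or 2-fold at 7 days in addition, when 2.16% of all genes did under VIC-1911 at 2 days, 6.89% at 7 days, 7.16% under olaparib and 8.54% under the combination. With an unadjusted p under 0.05 in edgeR, 1 member (OPTN at 2 days) did, and DESeq2 gave the same number. Losses given below for single genes are mainly those on leaving out a library. In all other settings, a fold limit aside, 20 of 24 calls (VIC), 16 of 19 (OLA) and 19 of 25 (COMBO) at 7 days were kept.

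**Figure D1:**
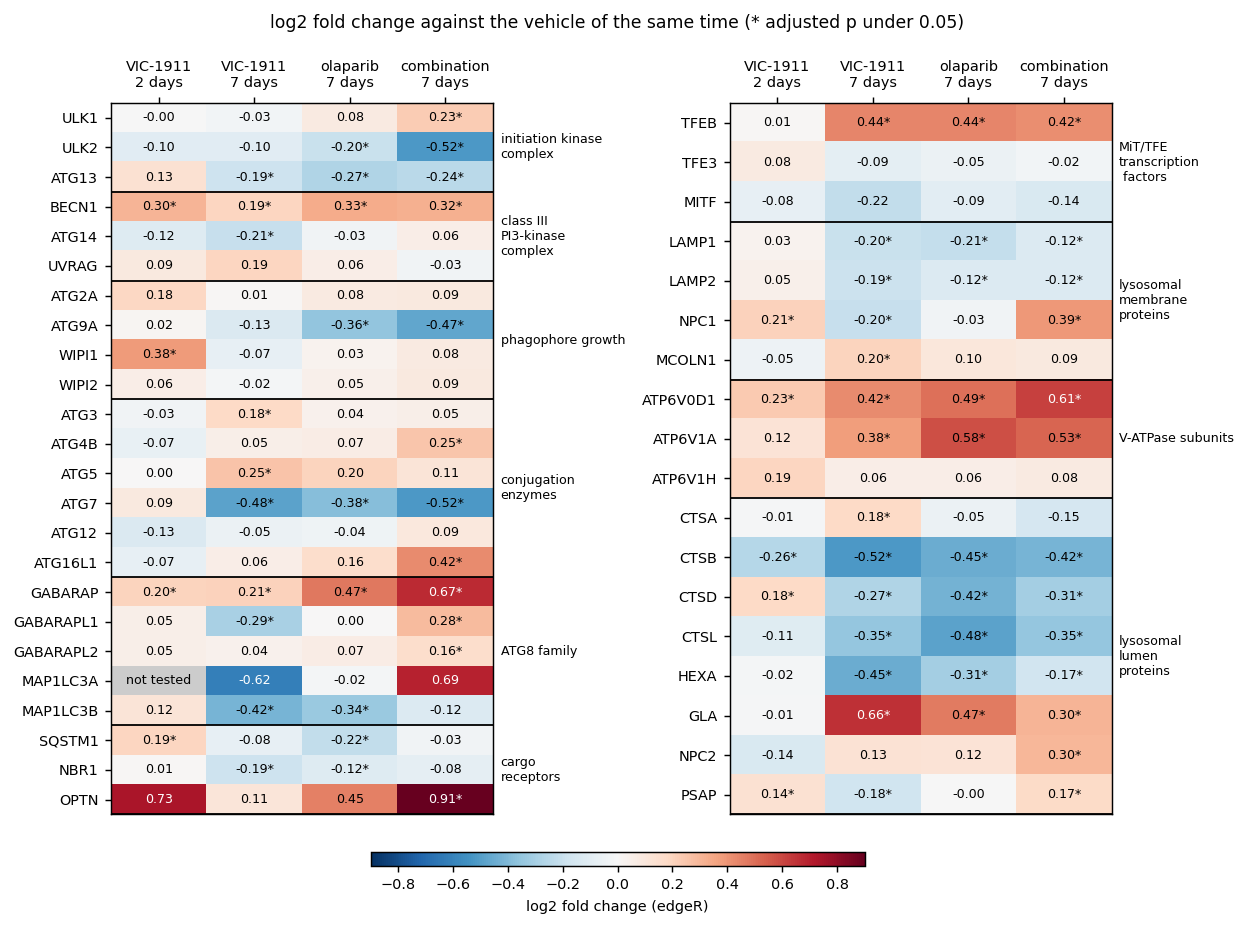
Log2 fold change of the 42 members (rows, by role) in the 4 comparisons with the vehicle of the same time (columns), from edgeR; red is higher, blue is lower, and an asterisk marks an adjusted p under 0.05. V-ATPase subunits ATP6V0D1 and ATP6V1A were called higher in all 3 columns of 7 days, CTSB, CTSD, CTSL and HEXA were called lower in all 3, and OPTN under the combination had the largest called value (0.91).

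Among the initiation genes, ULK1, the kinase that starts autophagy, measured 20.8, 20.7 and 18.1 FPKM in VEH_7d, 19.6, 20.6 and 20.5 in VIC_7d, 19.9, 22.4 and 21.4 in OLA_7d, and 23.2, 23.8 and 23.5 in COMBO_7d. The COMBO libraries lay above all others, and the remaining groups overlapped. Against vehicle ULK1 was called higher under the combination (0.23 ± 0.05, adjusted p = 0.000386, edgeR). COMBO was also higher than VIC-1911 alone (0.26 ± 0.05, adjusted p = 0.000176, edgeR), while COMBO against OLA did not pass (0.15 ± 0.05, adjusted p = 0.0582, edgeR). Its 2-day libraries ran from 12.5 to 14.2 FPKM in VEH and from 12.4 to 13.7 in VIC. Its paralog ULK2 went the other way, with 4.01, 4.02 and 3.97 FPKM in VEH_7d, 3.98, 4.17 and 3.45 in VIC_7d, 3.32, 3.598 and 3.57 in OLA_7d, and 2.58, 2.99 and 2.89 in COMBO_7d. The COMBO libraries were the lowest and did not overlap with any other group. ULK2 fell by 0.52 ± 0.07 under the combination and by 0.20 ± 0.07 under olaparib (adjusted p = 5.31e-07 and 0.0206, edgeR), the olaparib call lost without OLA_7d library 1, and COMBO was lower than OLA by 0.32 ± 0.07 (adjusted p = 0.00438). ATG13, the scaffold of the kinase complex, was lower in all 3 treatments at 7 days (-0.19, -0.27 and -0.24 for VIC, OLA and COMBO).

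BECN1, the scaffold of the class III lipid kinase complex, was called higher in each comparison with vehicle. It measured 19.3, 17.1 and 17.96 FPKM in VEH_2d against 22.2, 21.4 and 21.8 in VIC_2d, with no overlap, a rise of 0.30 ± 0.08 (adjusted p = 0.00448, edgeR). At 7 days it rose 0.19 under VIC-1911, 0.33 under olaparib and 0.32 under the combination, and the first of these was lost without VEH_7d libraries 2 or 3 or VIC_7d library 3. BECN1 shares 300 exon bases with PSME3 on the other strand, and PSME3, counted more deeply, was also called higher in all 4 comparisons (0.17, 0.25, 0.33 and 0.28), so reads of the 2 genes may not be told apart if counting ignored strand. ATG14 fell under VIC-1911 at 7 days (-0.21 ± 0.09, adjusted p = 0.0485, edgeR), a call lost without VEH_7d libraries 1 or 3 or VIC_7d libraries 1 or 3. DESeq2, both limma settings, a replicate block, no scaling and no filter on low counts each ended it too. UVRAG passed no test against vehicle.

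ATG9A, the scramblase on vesicles that seed the membrane, fell with olaparib. It measured 29.7, 25.6 and 26.2 FPKM in VEH_7d, 26.5, 24.3 and 26.1 in VIC_7d, 22.8, 20.6 and 21.6 in OLA_7d, and 20.6, 18.9 and 19.6 in COMBO_7d. VEH and VIC overlapped, and all OLA and COMBO libraries lay below them. The change was -0.36 ± 0.06 under olaparib and -0.47 ± 0.06 under the combination (adjusted p = 5.31e-06 and 3.65e-08, edgeR). WIPI1, which reads the lipid mark, was higher at 2 days, with 9.14, 9.23 and 11.1 FPKM in VEH_2d against 13.1, 12.6 and 13.4 in VIC_2d. These groups did not overlap, and the rise was 0.38 ± 0.11 (adjusted p = 0.0101, edgeR), a call lost without VEH_2d library 2 or VIC_2d library 1. At 7 days WIPI1 ran from 13.3 to 15.2 FPKM over all 12 libraries and passed no test. WIPI1 shares 829 exon bases with ARSG on the other strand, which gave 0.05 at 2 days and was called lower in the 7-day treatments (-0.68, -0.37 and -0.30 for VIC, OLA and COMBO), and whether counting kept the strands apart is not given in the sources used here. ATG2A and WIPI2 passed no test in any comparison.

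Of the 6 conjugation enzymes, ATG7, the E1-like enzyme of both systems, fell in each 7-day treatment. It measured 3.996, 4.16 and 4.24 FPKM in VEH_7d, 2.96, 3.08 and 3.06 in VIC_7d, 2.48, 3.19 and 3.53 in OLA_7d, and 2.84, 3.02 and 2.82 in COMBO_7d. Every treated library lay below every vehicle library. The changes were -0.48 ± 0.09, -0.38 ± 0.09 and -0.52 ± 0.09 (adjusted p = 3.73e-05, 0.000586 and 1.02e-05, edgeR). VGLL4, which shares 1597 exon bases with ATG7 on the other strand, was called higher in the same 3 comparisons (0.15, 0.29 and 0.36). ATG16L1, which sites the conjugation machinery on the membrane, and ATG4B, the protease that primes ATG8 proteins, rose under the combination (0.42 ± 0.09 and 0.25 ± 0.05) and were not called under either drug alone. COMBO against OLA gave 0.27 ± 0.09 and 0.18 ± 0.05 (adjusted p = 0.0381 and 0.0236, edgeR), calls that were both lost without OLA_7d library 3 or COMBO_7d libraries 1 or 3, and for ATG16L1 also without OLA_7d libraries 1 or 2. ATG3 and ATG5 rose under VIC-1911 at 7 days (0.18 and 0.25), each call lost without any of 4 of the 6 libraries, and ATG12 passed no test.

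The ATG8 family split. GABARAP, at chromosome 17, 7240008 to 7242449 on the minus strand (GRCh38, GENCODE), measured 161, 158 and 154 FPKM in VEH_7d, 182, 181 and 202 in VIC_7d, 212, 231 and 221 in OLA_7d, and 261, 246 and 249.9 in COMBO_7d. The 4 groups did not overlap and rose in that order. The changes against vehicle were 0.21 ± 0.05, 0.47 ± 0.05 and 0.67 ± 0.05 (adjusted p = 0.000437, 1.21e-09 and 3.4e-13, edgeR). GABARAP also rose at 2 days, from 163, 196 and 181 FPKM in VEH to 206, 219.7 and 199 in VIC with no overlap (0.20 ± 0.06, adjusted p = 0.0173, edgeR), a call lost without VEH_2d libraries 1 or 3 or VIC_2d library 2. It was the only member called in the same direction for VIC-1911 without and with olaparib (0.20 ± 0.05 for COMBO against OLA, adjusted p = 0.00365), and the 2 effects differed by -0.01 ± 0.07.

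GABARAPL1 and MAP1LC3B, by contrast, were lower under VIC-1911 alone. GABARAPL1 measured 17.95, 16.6 and 17.5 FPKM in VEH_7d, 13.7, 15.0 and 14.9 in VIC_7d, 18.2, 17.8 and 17.1 in OLA_7d, and 21.9, 20.6 and 20.8 in COMBO_7d. VIC was the lowest group and COMBO the highest, neither overlapping with the others. The changes were -0.29 ± 0.07 for VIC and 0.28 ± 0.06 for COMBO against vehicle (adjusted p = 0.000361 and 0.000246, edgeR), and 0.00 ± 0.06 for OLA. MAP1LC3B, the LC3B gene, measured 26.01, 26.6 and 31.2 FPKM in VEH_7d, 20.9, 21.6 and 21.3 in VIC_7d, 23.02, 21.3 and 22.5 in OLA_7d, and 26.2, 24.2 and 25.6 in COMBO_7d. Both single drugs lay below vehicle, while COMBO overlapped with it. It fell by 0.42 ± 0.06 under VIC-1911 and by 0.34 ± 0.06 under olaparib (adjusted p = 1.4e-06 and 4.06e-05, edgeR), and the combination gave -0.12 ± 0.06 (adjusted p = 0.0808). At 2 days GABARAPL1 ran from 12.3 to 13.1 FPKM in VEH and from 12.9 to 14.0 in VIC, and MAP1LC3B from 19.2 to 20.1 and from 21.4 to 22.3, with no call for either. GABARAPL2 rose 0.16 ± 0.06 under the combination, a call lost without VEH_7d libraries 2 or 3 or COMBO_7d library 1, and MAP1LC3A passed no test at 7 days.

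Among the cargo receptors, SQSTM1 (p62), which links ubiquitinated cargo to ATG8 proteins and is itself degraded by autophagy, measured 95.4, 96.6 and 97.3 FPKM in VEH_2d and 111, 112 and 107 in VIC_2d. The groups did not overlap, with a rise of 0.19 ± 0.04 (adjusted p = 0.00262, edgeR). At 7 days it measured 121, 120.2 and 123 FPKM in VEH, 114, 120.2 and 122 in VIC, 101, 107 and 106.9 in OLA, and 123, 119 and 115 in COMBO. OLA lay below all other groups and the other three overlapped. SQSTM1 fell by 0.22 ± 0.04 under olaparib (adjusted p = 4.87e-05, edgeR) and did not pass the test under VIC-1911 (-0.08) or the combination (-0.03). NBR1, a related receptor, fell under VIC-1911 (-0.19) and olaparib (-0.12), the second call lost without any of 4 of the 6 libraries. OPTN, low in these cells (28 to 53 counts per library in VEH_7d), measured 0.77, 0.466 and 0.882 FPKM in VEH_7d, 0.505, 0.779 and 0.863 in VIC_7d, 0.806, 0.854 and 1.017 in OLA_7d, and 1.17, 1.27 and 1.31 in COMBO_7d. COMBO lay above every other group, with a rise of 0.91 ± 0.20 (adjusted p = 0.000309, edgeR), the largest called value of any member against vehicle.

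Of the MiT/TFE transcription factors, TFEB RNA was called higher in all 3 treatments at 7 days. It measured 4.05, 3.24 and 3.48 FPKM in VEH_7d, 5.29, 4.23 and 5.51 in VIC_7d, 5.53, 4.62 and 4.98 in OLA_7d, and 5.66, 3.77 and 4.80 in COMBO_7d. VIC and OLA lay above vehicle, and COMBO overlapped with it through library 2. The changes were 0.44 ± 0.13, 0.44 ± 0.13 and 0.42 ± 0.13 (adjusted p = 0.00507, 0.00488 and 0.0054, edgeR), each lost without VEH_7d library 2, the first also without VIC_7d library 3 and the third also without COMBO_7d library 1. At 2 days TFEB measured 3.68, 3.47 and 4.73 FPKM in VEH and 3.81, 3.72 and 4.42 in VIC (0.01 ± 0.15), and the difference between the VIC-1911 effects at 7 and 2 days did not pass its test (0.41 ± 0.20, adjusted p = 0.12, edgeR). TFE3 and MITF passed no test. TFEB activity is set largely by where the protein sits, which RNA does not measure.

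**Figure D2:**
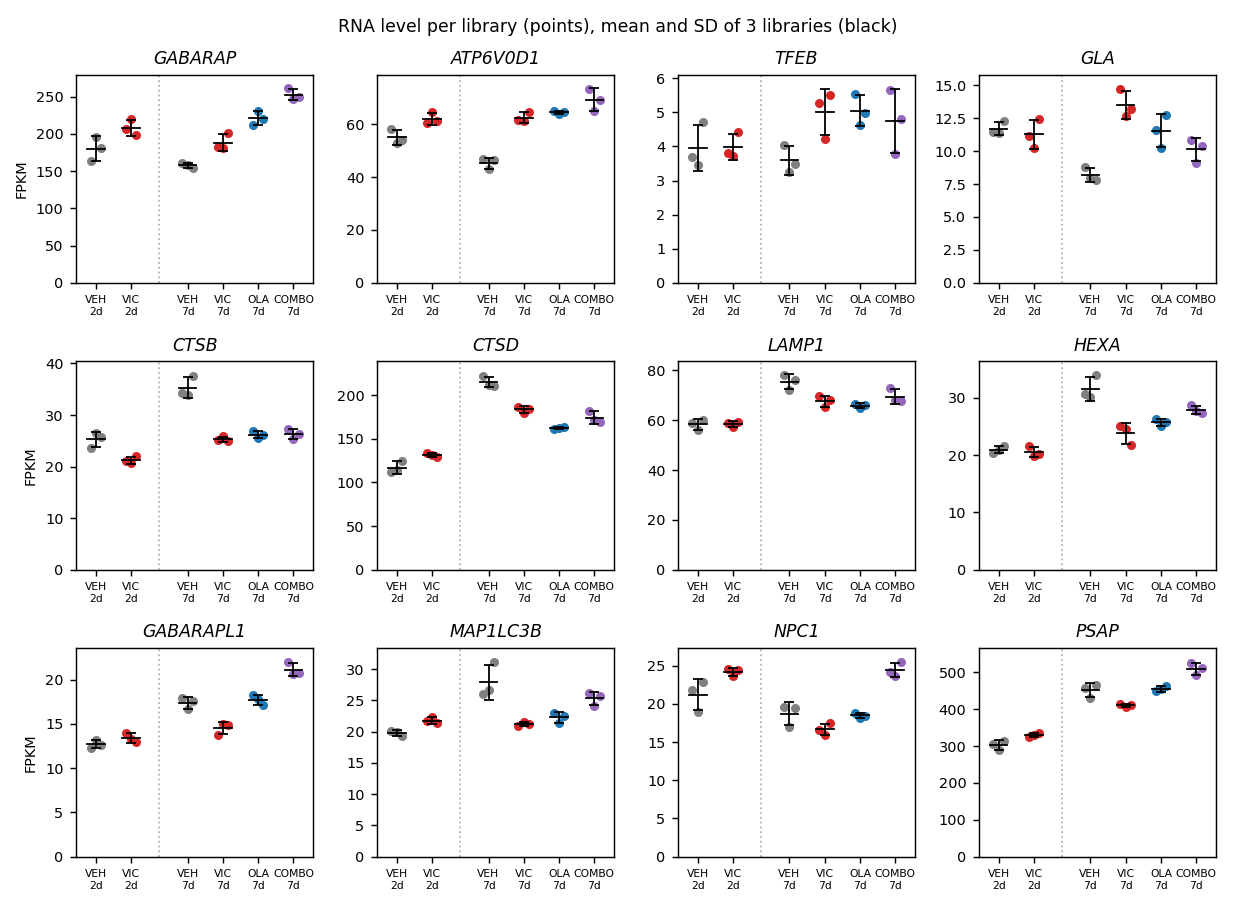
RNA level (FPKM, linear axis from 0) of 12 members in each library (points), with the mean and SD of 3 libraries in black, by group; the dotted line separates the 2-day from the 7-day tables. GABARAP and ATP6V0D1 rise over vehicle in every 7-day treatment, CTSB, CTSD, LAMP1 and HEXA fall, and GABARAPL1, NPC1 and PSAP are lowest under VIC-1911 and highest under the combination at 7 days.

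At the lysosomal membrane, LAMP1, a main structural glycoprotein, measured 77.9, 72.0 and 76.3 FPKM in VEH_7d, 69.7, 65.3 and 68.1 in VIC_7d, 66.7, 64.8 and 66.1 in OLA_7d, and 72.8, 68.1 and 67.5 in COMBO_7d. VIC and OLA lay below vehicle, and COMBO overlapped through 1 library. LAMP1 fell by 0.20 ± 0.05, 0.21 ± 0.05 and 0.12 ± 0.04 (adjusted p = 0.000434, 0.000229 and 0.0243, edgeR), and the last call was lost without VEH_7d library 1 or COMBO_7d libraries 2 or 3. That call was also lost in the compared groups alone, without scaling, with upper-quartile normalization and with both limma settings. LAMP2 fell in the same 3 comparisons with vehicle (-0.19, -0.12 and -0.12), the olaparib call lost without VEH_7d library 3 or OLA_7d library 2 and the combination call without VEH_7d or COMBO_7d library 3. Both limma settings and the fit without scaling ended these 2 LAMP2 calls as well. At 2 days LAMP1 ran from 56.0 to 60.3 FPKM in VEH and from 57.1 to 59.2 in VIC.

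NPC1, at chromosome 18, 23506184 to 23586506 on the minus strand (GRCh38, GENCODE), exports cholesterol from the lysosome and moved in opposite directions. It measured 21.8, 19.0 and 22.8 FPKM in VEH_2d and 24.5, 23.6 and 24.4 in VIC_2d, where VIC lay above vehicle. At 7 days it measured 19.6, 17.0 and 19.5 in VEH, 16.6, 15.9 and 17.4 in VIC, 18.8, 18.2 and 18.5 in OLA, and 24.2, 23.7 and 25.5 in COMBO. COMBO lay far above the other groups, and VIC overlapped with vehicle. VIC-1911 gave 0.21 ± 0.06 at 2 days and -0.20 ± 0.06 at 7 days, and the combination gave 0.39 ± 0.05 (adjusted p = 0.0185, 0.00285 and 3.68e-07, edgeR). The 2-day call was lost without VEH_2d library 2 or VIC_2d libraries 1 or 3, and also with DESeq2 and both limma settings. MCOLN1, a calcium channel of the lysosome, measured 11.5, 9.30 and 9.02 FPKM in VEH_7d, 12.5, 11.01 and 12.3 in VIC_7d, 11.1, 10.8 and 10.96 in OLA_7d, and 10.9, 10.5 and 10.7 in COMBO_7d. All groups overlapped with vehicle, and the one call, for VIC-1911 (0.20 ± 0.08, adjusted p = 0.0392, edgeR), was lost without any of 4 of the 6 libraries. At 2 days MCOLN1 ran from 8.39 to 11.7 FPKM in VEH and from 9.505 to 9.69 in VIC.

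Of the 3 V-ATPase subunits, ATP6V0D1 and ATP6V1A rose in all 3 treatments at 7 days, and ATP6V1H passed no test against vehicle. ATP6V0D1, a subunit of the membrane sector, at chromosome 16, 67438014 to 67481181 on the minus strand (GRCh38, GENCODE), measured 46.7, 42.9 and 46.3 FPKM in VEH_7d, 61.4, 61.3 and 64.8 in VIC_7d, 65.2, 63.8 and 64.5 in OLA_7d, and 73.5, 64.8 and 69.3 in COMBO_7d. Every treated library was above every vehicle library. The changes were 0.42 ± 0.05, 0.49 ± 0.05 and 0.61 ± 0.05 (adjusted p = 6.03e-08, 3.8e-09 and 2.15e-11, edgeR). At 2 days it measured 58.3, 52.7 and 54.0 FPKM in VEH and 60.3, 64.5 and 61.2 in VIC, without overlap (0.23 ± 0.06, adjusted p = 0.00631, edgeR), a call lost without VEH_2d library 3. ATP6V1A, the catalytic subunit, measured 19.4, 19.4 and 18.7 FPKM in VEH_7d, 25.7, 25.1 and 26.6 in VIC_7d, 30.1, 27.4 and 29.9 in OLA_7d, and 27.5, 28.0 and 27.8 in COMBO_7d. It was lowest in vehicle and highest in 2 of the OLA libraries, with changes of 0.38 ± 0.05, 0.58 ± 0.05 and 0.53 ± 0.05 (adjusted p = 1.54e-07, 3.78e-11 and 1.61e-10, edgeR).

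Inside the lysosome, CTSB, CTSD and CTSL fell in all 3 treatments at 7 days. Of the 8 lumen proteins 5, 4 and 4 were called lower and 2, 1 and 3 higher under VIC-1911, olaparib and the combination. The shares of all tested genes were 25.7%, 25.9% and 28.0% lower and 26.7%, 28.1% and 28.6% higher. No test compared these 8 with all genes, and the counts called higher are no result about the lumen proteins. CTSB, a cysteine protease, measured 34.3, 34.0 and 37.6 FPKM in VEH_7d, 25.2, 25.8 and 24.9 in VIC_7d, 26.8, 25.6 and 26.1 in OLA_7d, and 27.3, 25.4 and 26.3 in COMBO_7d. All treated libraries lay below vehicle, with changes of -0.52 ± 0.05, -0.45 ± 0.05 and -0.42 ± 0.05 (adjusted p = 3.97e-10, 8.39e-09 and 1.76e-08, edgeR). CTSB was also the 1 member that fell at 2 days, from 23.7, 26.5 and 25.7 FPKM in VEH to 21.1, 20.6 and 22.0 in VIC (-0.26 ± 0.06, adjusted p = 0.00254, edgeR). CTSD, the aspartic protease, was higher under VIC-1911 at 2 days, with 111, 115 and 125 FPKM in VEH and 134, 131 and 129 in VIC (0.18 ± 0.05, adjusted p = 0.011, edgeR), a call lost without VEH_2d library 1 or VIC_2d library 2. At 7 days CTSD measured 222, 212 and 211 FPKM in VEH, 187, 179.8 and 184 in VIC, 161, 162 and 163 in OLA, and 182, 172 and 169 in COMBO. OLA was lowest and vehicle highest, and VIC and COMBO overlapped with each other. The changes were -0.27 ± 0.04, -0.42 ± 0.04 and -0.31 ± 0.04 (adjusted p = 1.54e-06, 5.21e-10 and 1.85e-07, edgeR).

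CTSL, another cysteine protease, measured 42.6, 40.7 and 39.9 FPKM in VEH_7d, 33.8, 32.8 and 33.6 in VIC_7d, 29.7, 31.0 and 28.9 in OLA_7d, and 33.7, 30.6 and 32.6 in COMBO_7d. All 9 treated libraries lay below vehicle (-0.35 ± 0.05, -0.48 ± 0.05 and -0.35 ± 0.05). HEXA, a subunit of the hexosaminidase that degrades gangliosides, measured 30.6, 30.1 and 33.9 FPKM in VEH_7d, 25.1, 24.5 and 21.7 in VIC_7d, 26.2, 25.1 and 25.7 in OLA_7d, and 28.7, 27.7 and 27.3 in COMBO_7d. HEXA had its lowest mean under VIC-1911 and lay below vehicle in all treated libraries, with changes of -0.45 ± 0.06, -0.31 ± 0.06 and -0.17 ± 0.06 (adjusted p = 1.83e-07, 5.28e-05 and 0.0123, edgeR). The last of these was lost without VEH_7d library 3.

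GLA, which cleaves galactose from glycolipids, was the lumen enzyme called higher in all 3 treatments. It measured 8.81, 7.96 and 7.83 FPKM in VEH_7d, 14.7, 12.6 and 13.2 in VIC_7d, 11.6, 10.3 and 12.8 in OLA_7d, and 10.8, 9.14 and 10.4 in COMBO_7d. Every treated library lay above vehicle and VIC had the highest mean. The rise was 0.66 ± 0.10 under VIC-1911, 0.47 ± 0.10 under olaparib and 0.30 ± 0.10 under the combination (adjusted p = 1.89e-06, 0.000254 and 0.0114, edgeR); the last was lost without VEH_7d library 2 or COMBO_7d library 1. GLA shares 557 exon bases with RPL36A on the other strand, which passed no test (0.00, 0.14 and 0.21 at 7 days). At 2 days GLA ran from 11.4 to 12.3 FPKM in VEH and from 10.3 to 12.4 in VIC. PSAP measured 457, 429.8 and 466 FPKM in VEH_7d, 415, 407 and 411 in VIC_7d, 448, 454 and 463 in OLA_7d, and 526, 492 and 512 in COMBO_7d. VIC was lowest and COMBO highest without overlap, at -0.18 ± 0.04 and 0.17 ± 0.04 against vehicle (adjusted p = 0.000361 and 0.000461, edgeR). CTSA rose under VIC-1911 (0.18), a call lost without VEH_7d libraries 2 or 3 or VIC_7d library 1, and NPC2 under the combination (0.30).

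The members can be sorted by their calls against the shared 7-day vehicle. Lower in all 3 treatments were 8 of 42 (ATG13, ATG7, CTSB, CTSD, CTSL, HEXA, LAMP1 and LAMP2), a pattern that 17.3% of all tested genes showed. Higher in all 3 were 6 (ATP6V0D1, ATP6V1A, BECN1, GABARAP, GLA and TFEB), against 16.8% of all genes. Called under the combination alone were 6, all higher (ATG16L1, ATG4B, GABARAPL2, NPC2, OPTN and ULK1), against 4.09%. Lower under VIC-1911, not called under olaparib and higher under the combination were 3 (GABARAPL1, NPC1 and PSAP), against 0.611%. None of the 3 tests called 9, against 26.4%. These patterns were not among the planned results, and shares over all genes were computed for no others. The 3 comparisons share the same vehicle libraries, so like directions between them are no independent evidence.

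The effect of VIC-1911 with olaparib (COMBO against OLA) shares no library with its effect without it (VIC against VEH). COMBO against OLA raised 8 members and lowered 1 (ULK2), against 4.55% and 6.95% of all tested genes. Of the 14 members that fell with VIC-1911 alone, 4 rose when it was added to olaparib (GABARAPL1, MAP1LC3B, NPC1 and PSAP) and 10 passed no test there. The rise of MAP1LC3B was lost without OLA_7d libraries 2 or 3 or COMBO_7d libraries 1 or 3. Of the 10 that rose, 1 rose (GABARAP) and 9 passed no test. The shares of all tested genes with such paired calls were not computed, so these paired counts are no result about the members. A test of the difference between the 2 effects called 21 members, 15 with a positive and 6 with a negative difference, against 21.0% and 22.9% of all genes. Leaving out single libraries kept 15 of the 21 calls, and those of ATG14, ATG5, ATG7, CTSA, LAMP2 and TFEB were lost in at least 1 fit. The largest in absolute value were GLA (-0.83 ± 0.14, adjusted p = 1.39e-05), NPC1 (0.63 ± 0.08, adjusted p = 1.18e-07) and MAP1LC3B (0.63 ± 0.09, adjusted p = 7.63e-07), each from edgeR. Against VIC-1911 alone, the combination raised 13 members and lowered 5, when 20.7% and 22.2% of all genes did. GABARAPL1 (0.58 ± 0.06) and NPC1 (0.60 ± 0.05) were among them.

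**Figure D3:**
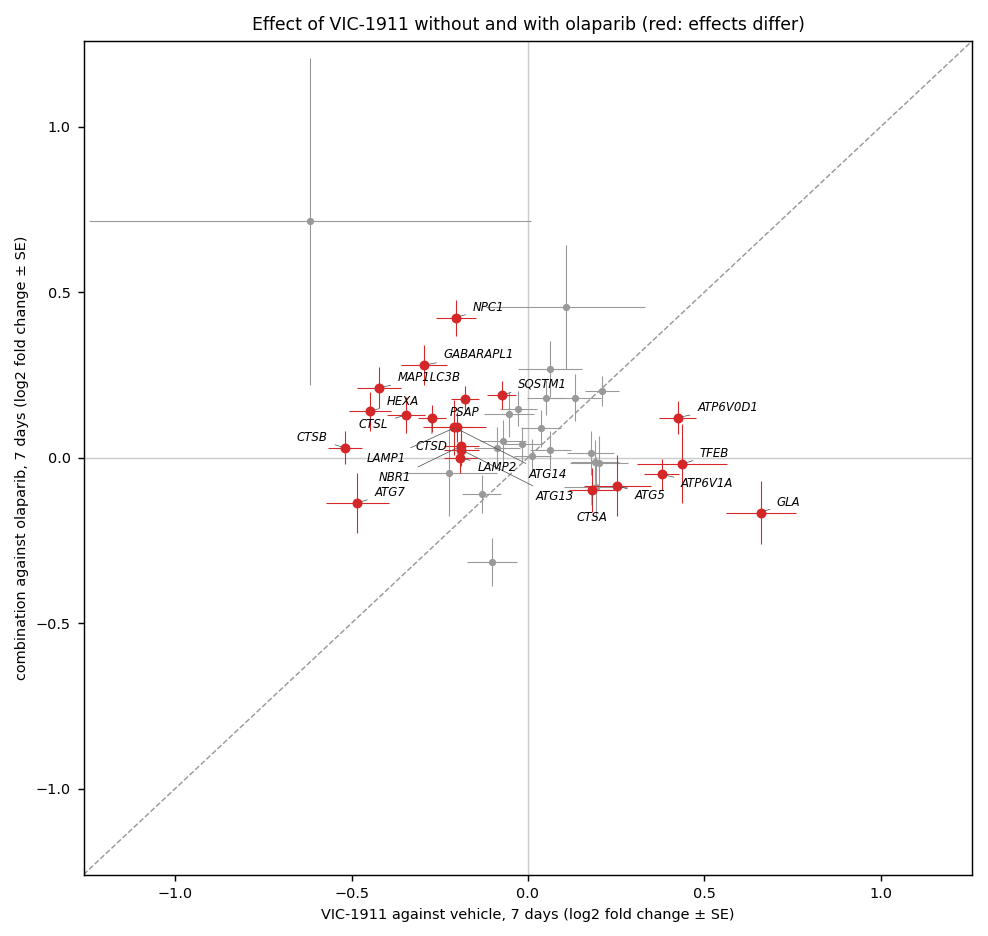
Effect of VIC-1911 on each of the 42 members at 7 days without olaparib (x axis, VIC against VEH) and with it (y axis, COMBO against OLA), as log2 fold change with SE from edgeR; red points, named, are the 21 members whose 2 effects differ, and the dashed line marks equal effects. NPC1 lies at -0.20 without and 0.42 with olaparib, while GLA lies at 0.66 without and -0.17 with it.

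Between the times, the VIC-1911 effect at 7 days was below that at 2 days for 15 members and above it for 2 (ATP6V1A and GLA), against 14.2% and 14.6% of all tested genes. CTSD, NPC1 and PSAP were called higher at 2 days and lower at 7 days. Each of these 2-day calls was lost in some fits that left out a library, that of PSAP without VIC_2d libraries 2 or 3. The difference was -0.46 ± 0.06 for CTSD, -0.42 ± 0.09 for NPC1 and -0.34 ± 0.06 for PSAP (adjusted p = 1.18e-07, 0.00014 and 1.17e-05, edgeR). The largest differences in absolute value were GLA (0.66 ± 0.15, adjusted p = 0.000823), ATG7 (-0.59 ± 0.14, adjusted p = 0.000983) and MAP1LC3B (-0.55 ± 0.10, adjusted p = 1.6e-05), each from edgeR. ATP6V0D1, BECN1 and GABARAP rose at both times and their effects passed no test of a difference (0.18 ± 0.08, -0.13 ± 0.10 and 0.00 ± 0.08). No share of all tested genes was computed for members that reversed or for those that rose at both times. How many did so is therefore no result about the members. The 2 times differ in vehicle libraries, in depth and in the table they come from, which cannot be told apart from time.

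**Figure D4:**
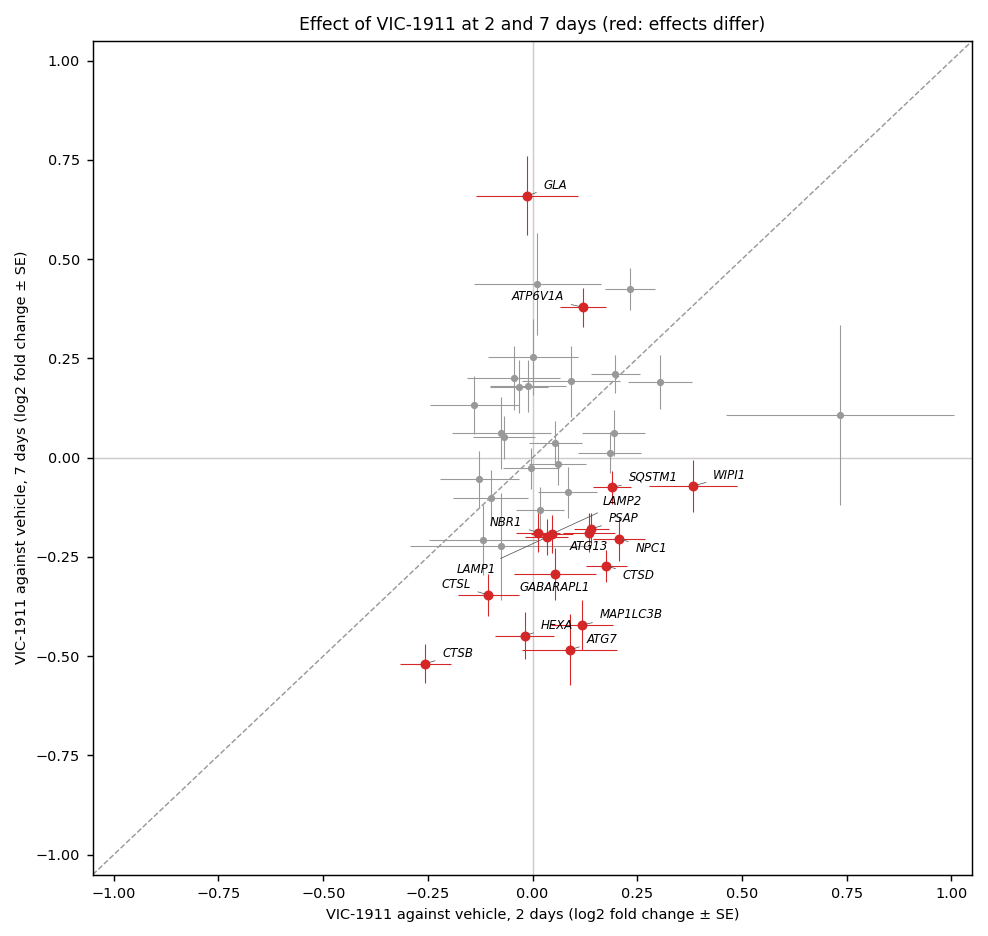
Effect of VIC-1911 against the vehicle of the same time at 2 days (x axis) and 7 days (y axis) for 41 members, as log2 fold change with SE from edgeR; red points, named, are the 17 members whose effects differ between the times, and the dashed line marks equal effects. CTSD, NPC1 and PSAP lie at 0.18, 0.21 and 0.14 at 2 days and at -0.27, -0.20 and -0.18 at 7 days.

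Other genes of the pathway were listed by function, and their counts are to be read against the shares of all tested genes called at 7 days (26.7%, 28.1% and 28.6% higher and 25.7%, 25.9% and 28.0% lower under VIC-1911, olaparib and the combination) and at 2 days (7.5% and 7.19%). Of 46 tested other lysosome genes, mostly hydrolases, 29 fell and 1 rose under VIC-1911 at 7 days, 34 fell and 1 rose under olaparib, and 30 fell and 2 rose under the combination, with medians of -0.27, -0.25 and -0.26 against -0.01, 0.01 and 0.00 over all tested genes. At 2 days 5 fell and 0 rose. GALC, which degrades galactosylceramide, went from 7.29 ± 0.52 FPKM (SD, n = 3) in VEH_7d to 4.40 ± 0.09 in VIC_7d, 3.91 ± 0.40 in OLA_7d and 3.50 ± 0.44 in COMBO_7d, the largest fall of this list under the combination (-1.07 ± 0.08, adjusted p = 6.63e-12, edgeR). IDUA, which degrades glycosaminoglycans, fell by 0.90 under VIC-1911 and by 0.19 under the combination, and CTSO rose by 0.95 under the combination. Among 17 tested other V-ATPase genes, 9 rose and 3 fell under VIC-1911, olaparib raised 9 and lowered 6, the combination raised 8 and lowered 5, and 5 of 15 rose and 0 fell at 2 days. The 7-day shares were 52.9%, 52.9% and 47.1% higher and 17.6%, 35.3% and 29.4% lower. ATP6V0C, the proteolipid subunit, rose in all 4 comparisons (0.18, 0.21, 0.50 and 0.62), and ATP6V1C1 rose by 0.60, 0.57 and 0.54 at 7 days. ATP6V1E2 fell under olaparib and the combination (-0.83 and -0.72).

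Of 34 other autophagy genes, 9 rose and 13 fell under VIC-1911 at 7 days, olaparib raised 8 and lowered 12, the combination raised and lowered 11, and at 2 days 3 rose and 1 fell. These were 26.5%, 23.5% and 32.4% higher and 38.2%, 35.3% and 32.4% lower at 7 days. The shares higher were near those of all genes (26.7%, 28.1% and 28.6%) and are no result about this list. TP53INP1, a p53 target that binds ATG8 proteins, rose from 31.3 ± 2.2 FPKM (SD, n = 3) in VEH_7d to 70.3 ± 5.2 in OLA_7d and 74.5 ± 1.2 in COMBO_7d (1.15 ± 0.05 and 1.25 ± 0.05, adjusted p = 4.33e-17 and 3.58e-18, edgeR), and by 0.51 and 0.41 under VIC-1911 at 2 and 7 days. CALCOCO2, the receptor NDP52, fell by 0.92, 0.92 and 0.93 in the 7-day treatments and by 0.29 at 2 days. WDR45 fell by 0.89, 0.68 and 0.45. Of 22 genes of mTORC1 at the lysosome, 9 rose and 4 fell under VIC-1911, olaparib raised 12 and lowered 4, the combination raised 12 and lowered 6, and at 2 days 2 rose and 0 fell, with 7-day shares of 40.9%, 54.5% and 54.5% higher and 18.2%, 18.2% and 27.3% lower. FNIP2 rose under each single drug (0.57 and 0.59) and not in the test of the combination (0.13). TSC1 fell by 0.52, 0.47 and 0.59, and DEPTOR fell by 0.44, 0.56 and 0.50.

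**Figure D5:**
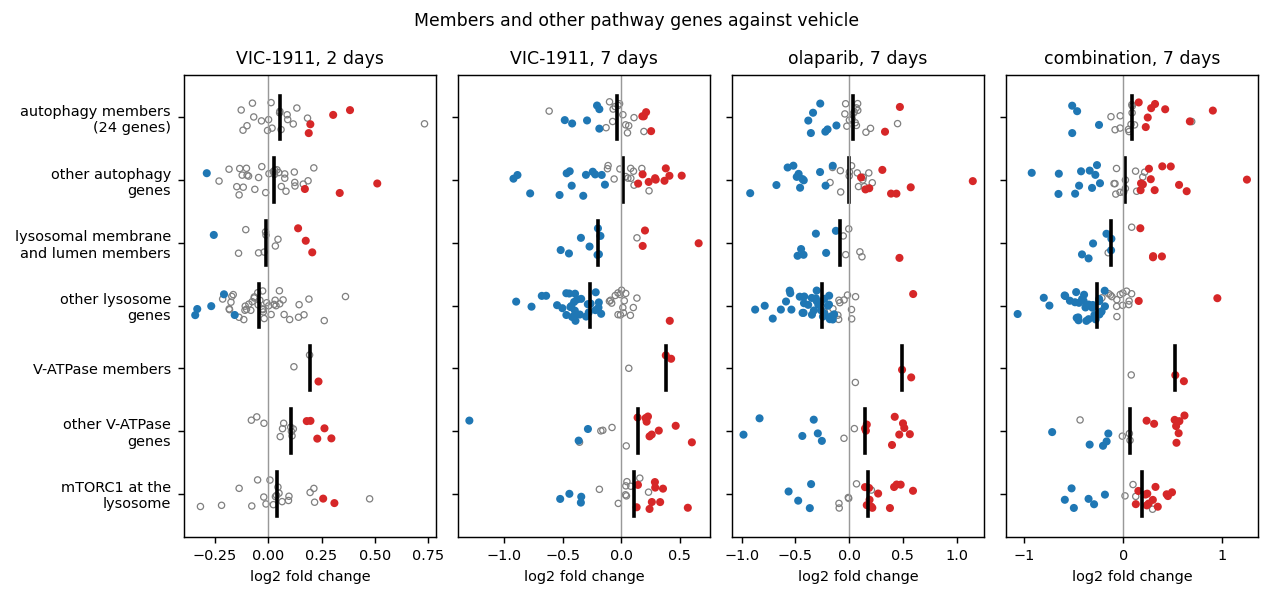
Log2 fold change (x axis, edgeR) of the members and of other pathway genes by list (rows) in the 4 comparisons with vehicle (panels, each with its own x scale); filled points passed an adjusted p under 0.05 (red higher, blue lower), open points did not, the black bar is the median of the row, and the spread within a row has no meaning. The other lysosome genes have medians of -0.27, -0.25 and -0.26 in the 7-day panels, and 2 of the 3 V-ATPase members are filled red in each.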

How the data were processed

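C4-2B cells were sequenced as bulk RNA in 18 libraries. The authors deposited a table of raw counts per gene and a table of FPKM for each time; the labels name STAR 2.6.0 and hg38, and the counting tool's strand setting was not given in the sources used here. At 2 days the deposited FPKM values rest on more reads than the counts. For 39 of 41 members their ratio to the counts, scaled for depth, lay within 10% of the gene's mean ratio in every library. Fold changes come from counts and levels from FPKM.

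Genes reaching 10 counts in 3 or more libraries of a fit were tested with edgeR 4.0.16 (R 4.3.3; TMM, quasi-likelihood test, two-sided) in the 6 libraries of 2 days (12241 genes), the 12 of 7 days (14409) and the 12 VEH and VIC libraries of both times (13832), with Benjamini-Hochberg adjustment over all genes; a gene was called at an adjusted p under 0.05. The biological coefficient of variation was 3.44% at 2 days and 4.43% at 7 days. Fits were tested on simulated data. Levels are mean ± SD over 3 libraries; ± beside a log2 fold change is its SE. DESeq2 1.42.0, limma 3.58.1 on log2 FPKM with a pseudocount of 0.1 or 1 and a mean of at least 1 FPKM, other scalings, no filter, a fold limit, the compared groups alone, a replicate block and leaving out each library were alternatives. No replicate pair of libraries agreed within sampling noise (chi-square per degree of freedom 1.26 to 5.52).

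Named with every library's values, or as ranges where no call was made, were 10 set genes and, per comparison with vehicle, up to 3 called members in each direction with the largest change, at least 1 FPKM and no overlap, plus the 3 largest differences of effects; up to 3 called genes were named per other list. Others were chosen after their values were seen. The members and lists were chosen with earlier results of these data known. At least 15 of 42 members share exon bases with another counted gene (GENCODE, GRCh38) and are uncertain if counting ignored strand. MCOLN1 shares 6 bases with PNPLA6 on the same strand, where strand would not separate them. On the other strand NPC1 shares 619 exon bases with RMC1 and SQSTM1 1582 with MRNIP, names not found among the counted genes. Gene names that a spreadsheet had turned into dates (28 per table, 0.182% of counts at 2 days and 0.193% at 7 days) could not be matched. Promoters came from RefSeq (GRCh38.p14).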

Additional observations from a re-analysis of the deposited data

Results flagged for a closer look

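The effect of VIC-1911 at 7 days differed with and without olaparib for 21 members in a test of the difference itself (edgeR's quasi-likelihood test of the interaction). The difference, as log2 fold change with olaparib minus that without it, was positive for 15, namely MAP1LC3B (0.63), NPC1 (0.63), HEXA (0.59), GABARAPL1 (0.57), CTSB (0.55), CTSL (0.48), CTSD (0.39), PSAP (0.36), ATG7 (0.35), ATG14 (0.30), LAMP1 (0.29), SQSTM1 (0.26), NBR1 (0.22), ATG13 (0.21) and LAMP2 (0.19). It was negative for 6, namely GLA (-0.83), TFEB (-0.46), ATP6V1A (-0.43), ATG5 (-0.34), ATP6V0D1 (-0.30) and CTSA (-0.28). Leaving out 1 library at a time ended the call in 8 of 12 fits for ATG14 (kept without VEH_7d, VIC_7d or COMBO_7d library 2 or OLA_7d library 3), for TFEB (kept without VEH_7d or COMBO_7d library 1 or VIC_7d or OLA_7d library 2) and for ATG5 (kept without VEH_7d library 3, VIC_7d or COMBO_7d library 2 or OLA_7d library 1). It also ended those of ATG7 (4 fits, without VIC_7d library 1, OLA_7d libraries 1 or 2 or COMBO_7d library 2), LAMP2 (3 fits, without VIC_7d libraries 2 or 3 or OLA_7d library 2) and CTSA (1 fit, without VEH_7d library 2). Other settings also ended those of ATG13 and NBR1, and 13 of the 21 calls were kept in every alternative. All 21 differences had the sign opposite to the effect of VIC-1911 alone, whose libraries they share. The difference subtracts that effect, and the share of opposite signs over all called genes was not computed. The count of signs is therefore no result about the members.

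The effect of VIC-1911 differed between 7 and 2 days for 17 members in the same kind of test. The difference, 7 days minus 2 days, was negative for 15, namely ATG7 (-0.59), MAP1LC3B (-0.55), WIPI1 (-0.47), CTSD (-0.46), HEXA (-0.44), NPC1 (-0.42), GABARAPL1 (-0.36), PSAP (-0.34), ATG13 (-0.34), CTSB (-0.28), SQSTM1 (-0.28), CTSL (-0.26), LAMP1 (-0.25), LAMP2 (-0.25) and NBR1 (-0.22). It was positive for GLA (0.66) and ATP6V1A (0.24). Leaving out 1 library at a time ended the call of CTSL (6 of 12 fits, without VEH_2d libraries 1 or 3, VIC_2d library 2, VEH_7d libraries 1 or 2 or VIC_7d library 2), NBR1 (4 fits, without VIC_2d library 3, VEH_7d libraries 1 or 2 or VIC_7d library 2) and GABARAPL1 (2 fits, without VIC_2d or VEH_7d library 1), and the other 14 were kept in every alternative. With 3 libraries a group, single libraries were not tested for standing apart within a group.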

How the results depend on the processing

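No named value reversed in any alternative. Under a fold limit (1.5 at 2 days, 2 at 7 days and for the difference between times) the count of members called was 0 in both directions of all 8 comparisons. Other pathway genes then gave 0 higher and 0 lower under VIC-1911 at 2 days, 0 and 1 at 7 days, 1 and 0 with olaparib, and 1 in each direction with both drugs. The 2-day counts were the least stable. The 8 members called higher became 5 with DESeq2, 0 with limma at the pseudocount of 0.1 and 2 at that of 1, and the 1 lower became 0 with both limma settings. At an unadjusted p under 0.05 limma on log2(FPKM + 0.1) gave 9 higher and 1 lower, edgeR 13 and 1, and DESeq2 9 and 1. None of the 9 calls at 2 days was kept in every alternative, against 16 of 24 (VIC), 15 of 19 (OLA) and 18 of 25 (COMBO) at 7 days. The 10 other pathway genes higher at 2 days became 6 with DESeq2 and 4 with each limma setting, and the 6 lower became 3 on log2(FPKM + 0.1). For COMBO against OLA the 8 higher became 4 and 5 with the 2 limma settings. For COMBO against VIC the 13 higher became 23 with upper-quartile normalization and 22 without scaling. Without scaling, the share of higher calls over all genes moved from 50.8% to 61.1% for the difference between times.

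Leaving out 1 library each moved 5 counts of members and 1 of other pathway genes by over 1.5 times. Members higher at 2 days ranged from 5 to 7 (5 without VIC_2d library 2). Those higher under VIC-1911 at 7 days ranged from 5 to 10 (5 without VEH_7d library 2 or VIC_7d library 3, 6 without VEH_7d library 3). Those higher in COMBO against OLA ranged from 5 to 11 (5 without OLA_7d library 3 or COMBO_7d libraries 1 or 3). Negative interactions ranged from 3 to 7 (3 without VEH_7d library 2). Effects above those at 2 days ranged from 2 to 6 (4 without VEH_2d library 3, 6 without VEH_7d library 1 or VIC_7d library 2). Other pathway genes higher at 2 days ranged from 6 to 10 (6 without VEH_2d library 3). The causes were not tested.

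Libraries of the groups share only a number. Deviations from the group mean correlated at -0.142 to 0.297 for equal numbers and at -0.348 to 0.326 for others. With a replicate block, 15 members were called higher and 11 lower under the combination, 9 higher for COMBO against OLA and 14 for COMBO against VIC, and the other counts of members called were as without it. Low members are limited by depth, with MAP1LC3A untested at 2 days and OPTN at 12 to 14 counts per library in VEH_2d.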
